A study of Drosophila melanogaster with 16 samples.

Results

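Glutathione S-transferases (GSTs) were examined in 16 single whole Drosophila flies as a family of 34 genes, chosen by symbol (Gst, then the class letter D, E, O, S, T or Z and a number) among the probe sets that the array annotation gives to 1 gene. The array names 11982 genes in this way. The family held 11 delta, 13 epsilon, 3 omega, 1 sigma, 4 theta and 2 zeta genes on 36 probe sets, and each gene was read from its brightest probe set. Members were chosen by name, though with earlier results of these data known. Only the choice of the brightest probe set used measured values, the mean log2 level over all 16 flies. The gene se, an omega class enzyme known from eye pigment synthesis, carries no such symbol and is described with the wider pathway.

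Each of 4 groups had 4 flies, 1 fly per Affymetrix Drosophila Genome 2.0 array. The dmDys flies carried UASdmDysC-term, a construct that makes double-stranded RNA against dystrophin, together with P-tub-Gal4, a driver active in all tissues, so the knockdown was not limited to muscle. The WT flies carried the P-tub-Gal4 driver alone, which is therefore shared by all 4 groups. All flies were adults of 3 to 5 days of age when the exposure began. CH-dmDys flies lived under chronic hypoxia (CH) on Mount McKinley for 2 weeks by the labels, during an ascent of 16 days to 6194 m. The paper calculated oxygen pressure there from barometric pressure and also gives it in percent. It was 16.3% on the first day and lowest at 9.9%, for a short time at the summit. CH-WT flies received the same oxygen schedule at normal pressure in a laboratory chamber. Normoxic dmDys and normoxic WT flies stayed in room air. Between CH-dmDys and normoxic dmDys flies, low oxygen therefore cannot be told apart from low pressure, transport and other conditions of the mountain. Where the CH response of dmDys flies is set beside that of WT flies, low pressure, transport and genotype cannot be told apart. Some labels contradict the sample titles, which were followed. CH stands in the source name of every normoxic dmDys fly, the strain entry of CH-WT replicate 3 reads dmDys, that of CH-dmDys replicate 5 is missing, and CH-WT replicate 5 carries the sample number 3 in its characteristics. Nothing in the labels says that the flies of a group came from separate cultures.

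GSTs join the tripeptide glutathione to reactive or foreign compounds, which makes these compounds more soluble and easier to export. The delta and epsilon classes are expanded in insects and lie in gene clusters, and many of their members are known from insecticide resistance and oxidative stress. Omega enzymes reduce dehydroascorbate, and the sigma enzyme GstS1 is abundant in flight muscle and acts on products of lipid peroxidation. Theta enzymes are an old class shared with vertebrates, and zeta enzymes isomerise maleylacetoacetate in the breakdown of tyrosine. In flies much of this chemistry takes place in midgut, Malpighian tubules and fat body, and the transcription factor cnc, held back by Keap1 and acting with maf-S, drives many GST genes under stress. By gene order in the RefSeq Release 6 annotation, 10 delta genes stand next to each other on 3R from GstD10 to GstD8, and GstD11 follows after 1 other gene. A run of 10 epsilon genes stands on 2R from GstE10 to GstE9, of which GstE8 was not among the named probe sets. GstT1 and GstT2 are neighbours on 2R, GstZ1 and GstZ2 on 3R, and GstO3, GstO2 and GstO1 lie together on 3L.

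Several facts of the arrays touch every GST value. Levels are log2 intensity, and a value was counted as near the floor when it lay within 1 log2 unit of the lowest value of its array. The lowest log2 value was 2.06 on dmDys arrays and 1.95 on WT arrays, and the upper quartiles were 10.18 to 10.28 and 8.99 to 9.09, so any gap between dmDys and WT levels also holds a difference in scale between the arrays. Transcripts of Act5C, Gapdh and eIF-4a are probed at both ends, and their 3' minus 5' log2 signal, which is larger where less of the length was kept, was 3.29 ± 0.54 in CH-dmDys flies, 8.46 ± 2.01 in normoxic dmDys, 6.07 ± 1.06 in CH-WT and 7.16 ± 0.16 in normoxic WT (SD, n = 4 each). CH-WT replicate 7 and normoxic WT replicate 5 lacked testis transcripts, with a median log2 level of 2.31 and 2.23 over 20 testis genes against at least 13.05 in every other fly. The brightest probe set of Dys, the targeted gene, averaged 8.61 ± 0.38 in CH-dmDys, 7.50 ± 1.56 in normoxic dmDys, 8.52 ± 0.54 in CH-WT and 8.39 ± 0.97 in normoxic WT flies (SD, n = 4 each), and the 4 groups overlapped, so this probe set does not separate dmDys from WT flies. In RNA from whole flies, fewer cells of a type and less RNA per cell cannot be told apart.

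Of the 34 GST genes, 25 were above the floor in all 16 flies, 6 were near it in some flies and 3 were near it in all of them. The 3 are GstD4, GstD6 and GstD8, which alternate with GstD5 and GstD7 in the delta cluster. The flies of a group differed least in CH-dmDys, where the median SD of the 28 GSTs above the floor in all its flies was 0.18 log2 units, against 0.30 in normoxic dmDys, 0.81 in CH-WT and 0.54 in normoxic WT. GstS1 had the smallest spread of these genes in both dmDys groups (SD 0.02 and 0.09) and GstO2 in both WT groups (SD 0.05 and 0.09). GstD10 had the largest spread in both WT groups, with SDs of 1.78 and 2.09.

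**Figure D1:**
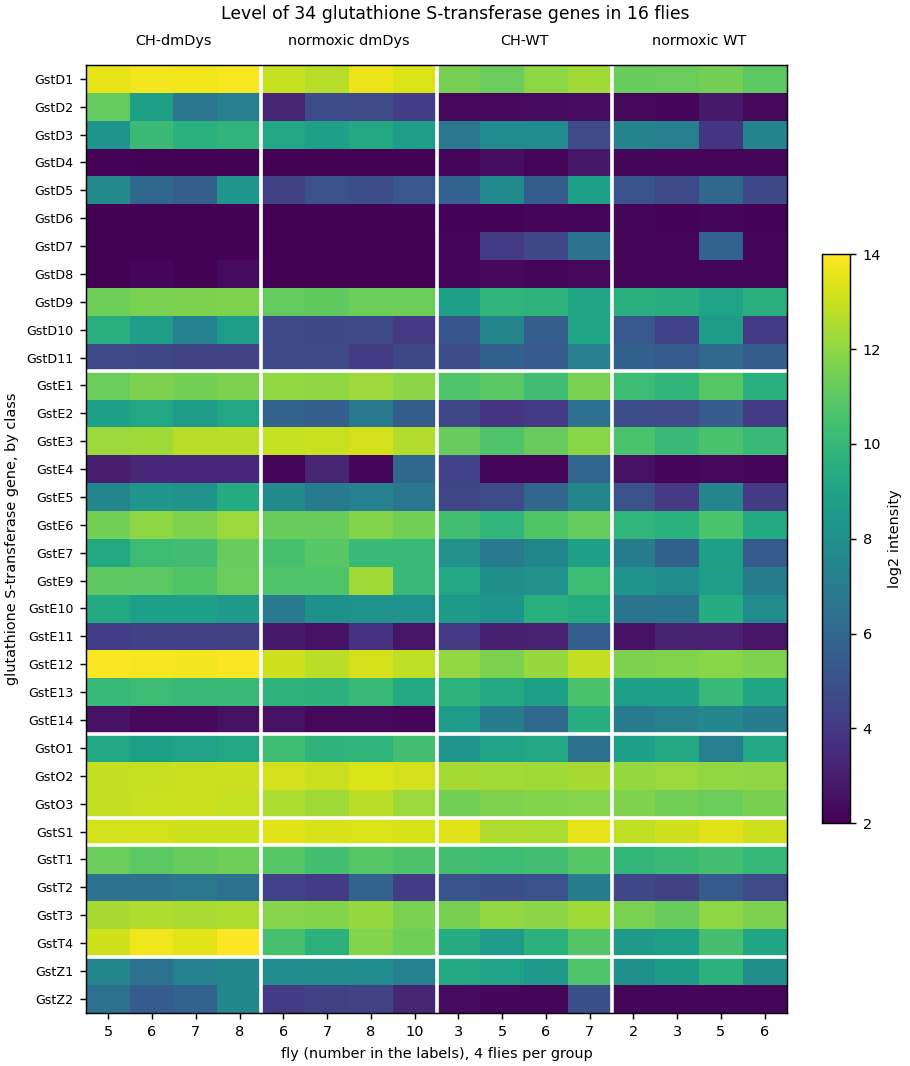
Log2 intensity (colour scale, from 2 to 14) of the 34 GST genes (rows, by class, white lines between classes) in the 16 flies (columns, by group and label number). GstE14 is dark in the 8 dmDys flies and bright in the 8 WT flies, GstD4, GstD6 and GstD8 are dark in all 16 flies, and colours compare flies within a gene, not genes with each other.

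CH-dmDys flies had higher transcript levels of 7 GSTs than normoxic dmDys flies and a lower level of 1. The 7 were GstD2, GstD10, GstE2, GstE11, GstT2, GstT4 and GstZ2, and the lower one was GstO1. To be called, a gene had to differ at least 2-fold, 1 unit in log2, with p under 0.05 after Benjamini-Hochberg adjustment over all 18907 probe sets. Differences are given with the standard error (SE) of the fit. Over all probe sets 5.46% were called higher and 4.07% lower, 9.53% in all. Of the 34 genes, 21 had an unadjusted p under 0.05, against 32% of all probe sets, and the median log2 difference of the family was 0.41 against 0.00 over all probe sets. Leaving aside genes near the floor in all 8 flies, 14 of 29 GSTs had every CH-dmDys fly above every normoxic dmDys fly and 4 of 29 the reverse, against 22.8% and 25.4% of the probe sets read in the same way.

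In the delta class the rises were those of GstD10 and GstD2, which stand 3 places apart in the cluster. GstD10, the first gene of the cluster, had log2 levels of 9.52, 8.66, 7.27 and 8.67 in CH-dmDys replicates 5, 6, 7 and 8 and of 4.63, 4.59, 4.63 and 4.01 in normoxic dmDys replicates 6, 7, 8 and 10. The lowest CH-dmDys fly thus stood well above the highest normoxic one. The log2 difference was 4.07 (SE 0.48, adjusted p = 0.0038), a 16.7-fold change. GstD2 had levels of 11.11, 8.82, 6.72 and 7.21 in the CH-dmDys flies and of 3.23, 4.85, 4.80 and 4.22 in the normoxic dmDys flies. The groups did not overlap, and the CH-dmDys flies differed widely among themselves, with replicate 5 far above replicates 7 and 8. This gave a log2 difference of 4.19 (SE 1.03, adjusted p = 0.035), and it no longer passed in the fits that left out any normoxic dmDys fly, or CH-dmDys replicate 6 or 8 (adjusted p from 0.057 to 0.091). GstD5 had a log2 difference of 2.06 (SE 0.65, adjusted p = 0.076) and did not pass, with groups that did not overlap. GstD1, the most studied delta enzyme and a common reporter of cnc activity, stood at 13.75 ± 0.12 against 13.18 ± 0.42 (SD, n = 4 each, log2 difference 0.57, adjusted p = 0.12). GstD9 passed on the adjusted p (0.030) at a log2 difference of 0.37, under the 2-fold limit. GstD3 (0.46) and GstD11 (0.06) did not pass, and GstD4, GstD6, GstD7 and GstD8 lay near the floor in all 8 dmDys flies.

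In the epsilon class GstE2 and GstE11 were called. GstE2, between GstE1 and GstE3 in the run on 2R, had levels of 8.87, 9.14, 8.64 and 9.14 in the CH-dmDys flies and of 5.80, 5.62, 6.81 and 5.53 in the normoxic dmDys flies. The CH-dmDys flies lay close together, and each was above all normoxic flies. The log2 difference was 3.01 (SE 0.31, adjusted p = 0.0028). GstE11, which lies outside the run, was at 4.22, 4.39, 4.26 and 4.26 against 2.88, 2.58, 3.73 and 2.68, again with no overlap, and 3 of the 4 normoxic flies were near the floor. Its log2 difference was 1.32 (SE 0.26, adjusted p = 0.017), and without CH-dmDys replicate 6 it missed the threshold (adjusted p = 0.0501). The neighbours of GstE2 had small negative differences. GstE1 was lower by a log2 difference of 0.55 with an adjusted p of 0.015, under the 2-fold limit, and GstE3 had a log2 difference of -0.44 (adjusted p = 0.14). GstE12 had a log2 difference of 0.88 (adjusted p = 0.005) and also fell short of 2-fold. GstE5 (1.21, adjusted p = 0.11) and GstE10 (1.03, adjusted p = 0.076) exceeded 2-fold and missed the adjusted p. The others, GstE4, GstE6, GstE7, GstE9, GstE13 and GstE14, had log2 differences between -0.14 and 0.42, and none of them passed.

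All 4 theta genes were higher in CH-dmDys flies without overlap of the groups, against 22.8% of the probe sets not near the floor in all 8 flies. Of the 4, 2 passed both limits. GstT4, on the X chromosome, had levels of 13.11, 13.73, 13.49 and 14.02 in the CH-dmDys flies and of 10.51, 9.73, 11.76 and 11.37 in the normoxic dmDys flies. All 4 CH-dmDys flies were above the highest normoxic fly. On the log2 scale the groups differed by 2.75 (SE 0.48, adjusted p = 0.012). GstT2 had levels of 6.57, 6.55, 6.75 and 6.51 against 4.40, 4.12, 5.78 and 4.10, with normoxic dmDys replicate 8 standing above its group. Its log2 difference was 2.00 (SE 0.39, adjusted p = 0.017), and leaving out CH-dmDys replicate 7 or normoxic dmDys replicate 6 took the adjusted p above 0.05 (adjusted p = 0.054 and 0.052). GstT1, its neighbour on 2R, and GstT3, on the X, had log2 differences of 0.53 (adjusted p = 0.027) and 0.69 (adjusted p = 0.0088), both under 2-fold. The median of the class was 1.34, against 0.37 for delta and 0.40 for epsilon. That of delta includes GstD4, GstD6, GstD7 and GstD8, which lay near the floor.

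The small classes went in both directions. GstZ2 had levels of 6.46, 5.49, 5.76 and 7.59 in the CH-dmDys flies and of 4.08, 4.26, 4.46 and 3.24 in the normoxic dmDys flies, with no overlap. Its log2 difference was 2.32 (SE 0.53, adjusted p = 0.027), and the call did not survive leaving out 5 of the 8 flies, replicates 5 and 7 of CH-dmDys and 6, 7 and 10 of normoxic dmDys (adjusted p from 0.051 to 0.068). GstZ1, next to it on 3R, had a log2 difference of -0.48 (adjusted p = 0.30). GstO1 was the lower gene, at 9.13, 8.84, 8.91 and 9.16 in the CH-dmDys flies against 10.26, 9.81, 9.85 and 10.43 in the normoxic ones, with every CH-dmDys fly below every normoxic one. The log2 difference was -1.08 (SE 0.17, adjusted p = 0.0086). Leaving out replicate 10 of the normoxic flies gave -0.96, under the 2-fold limit. GstO3 had a log2 difference of 0.50 (adjusted p = 0.036) and GstO2 of -0.20 (adjusted p = 0.087). GstS1 was at 13.20, 13.16, 13.15 and 13.15 in the CH-dmDys flies and at 13.45, 13.26, 13.35 and 13.26 in the normoxic dmDys flies. These ranges did not overlap, though the log2 difference was only -0.16 (SE 0.05, adjusted p = 0.051).

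**Figure D2:**
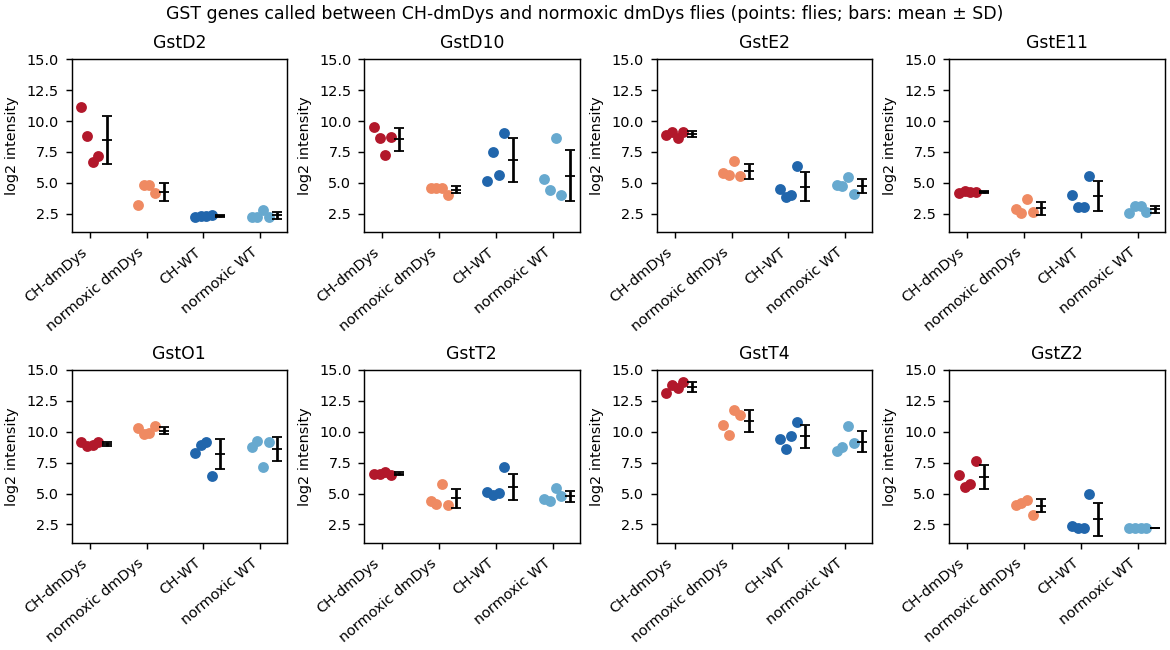
Log2 intensity (vertical axis) of the 8 GSTs called between CH-dmDys and normoxic dmDys flies, 1 point per fly in each of the 4 groups, with the group mean and SD as bars (n = 4). The CH-dmDys flies lie above the normoxic dmDys flies for 7 genes and below them for GstO1, and CH-WT and normoxic WT flies overlap in each panel.

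The calls of GstD10, GstE2 and GstT4 held when any 1 of the 8 dmDys flies was left out. The 3' to 5' difference of Act5C, Gapdh and eIF-4a did not overlap between the groups either, at 2.95 to 4.09 in CH-dmDys flies and 5.76 to 10.34 in normoxic dmDys flies. As a covariate it left 0 of the 34 genes called and 0.153% of all probe sets. In that fit 6 of the 34 genes and 1759 of the 18907 probe sets had an unadjusted p under 0.05. With the covariate the log2 difference was 4.49 for GstD10, 4.67 for GstD2 and 1.78 for GstE2, and 0.51 for GstT4, 0.32 for GstT2 and 0.17 for GstE11. For GstZ2 and GstO1 it lay within 1.90 to 2.60 and -1.17 to -0.93, their ranges over the settings tried. These are sizes only, since none of them passed with the covariate. RNA length and CH cannot be told apart in these 8 flies. Among the normoxic flies, replicate 8 had the lowest 3' to 5' difference, 5.76, and the highest level of its group in 18 of the 29 GSTs not near the floor in all 4 flies, 62.1%, against 27.3% of all probe sets so read. Without it 7 GSTs were called, and 2109 of all probe sets. Of the marker lists of organs, 2 of 6 Malpighian tubule genes were called higher in CH-dmDys flies. The median log2 level of the 6 was 10.68 to 11.15 against 9.45 to 9.99. Yet 3 of the 6 differences were above 0 and 3 below, with a median of 0.14. In the midgut list 1 of 10 genes was higher and 1 lower, and 1 of 8 fat body genes was higher. Among 8 eggs and yolk genes 1, grk, was lower (-1.14, adjusted p = 0.034), and 0 of 20 testis genes were called. The part of these organs in the GST levels was not tested.

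CH-WT and normoxic WT flies showed 0 called GSTs. Over all probe sets 0% were called, and 1.23% had an unadjusted p under 0.05, against 2 of the 34 GSTs, GstE3 and GstO2. GstE3 had levels of 11.23, 10.70, 11.21 and 11.85 in CH-WT replicates 3, 5, 6 and 7 and of 10.61, 10.09, 10.58 and 10.07 in normoxic WT replicates 2, 3, 5 and 6. Each CH-WT fly was above every normoxic WT fly. This gave a log2 difference of 0.91 (SE 0.27, unadjusted p = 0.014, adjusted p = 0.9996). GstO2 was at 12.41, 12.34, 12.31 and 12.42 against 12.09, 12.20, 12.04 and 12.00, a log2 difference of 0.29 (SE 0.05, unadjusted p = 0.0011). These were also the only members whose CH-WT flies all lay above the normoxic WT flies, and groups stood apart in that direction in 0.784% of the probe sets not near the floor in all 8 flies.

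Although no gene passed, 29 of the 34 differences were above 0 in CH-WT flies, with a median log2 difference of 0.47. Among members not near the floor in all 8 flies the count was 27 of 30 and the median 0.57, against 44.6% of all probe sets above 0 and a median of -0.05. The 3' to 5' difference was lower in CH-WT flies (4.51 to 6.78) than in normoxic WT flies (6.97 to 7.34), and with it in the fit 15 of the 34 differences were above 0 and the median was -0.03, so the lean of the family and this RNA length measure cannot be told apart. The largest in the delta class was GstD5, with levels of 5.79, 7.69, 5.53 and 8.80 in CH-WT flies and of 5.12, 4.65, 6.03 and 4.62 in normoxic WT flies. Normoxic WT replicate 5 overlapped the CH-WT flies (log2 difference 1.85, SE 0.82). The largest in the epsilon class was GstE4, at 4.42, 2.22, 2.23 and 5.91 against 2.56, 2.23, 2.24 and 2.23, where only CH-WT replicates 3 and 7 rose above the floor region (1.38, SE 0.88). GstT2 led the theta class at 5.14, 4.89, 5.02 and 7.10 against 4.54, 4.36, 5.43 and 4.77, with CH-WT replicate 7 alone above the normoxic range (0.77, SE 0.56). GstZ1 had levels of 9.33, 8.97, 8.51 and 10.68 against 8.04, 8.55, 9.71 and 7.99, which overlapped (0.80, SE 0.60). The differences of GstO1 (-0.38, SE 0.76) and GstS1 (-0.12, SE 0.30) were negative and within their errors.

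**Figure D3:**
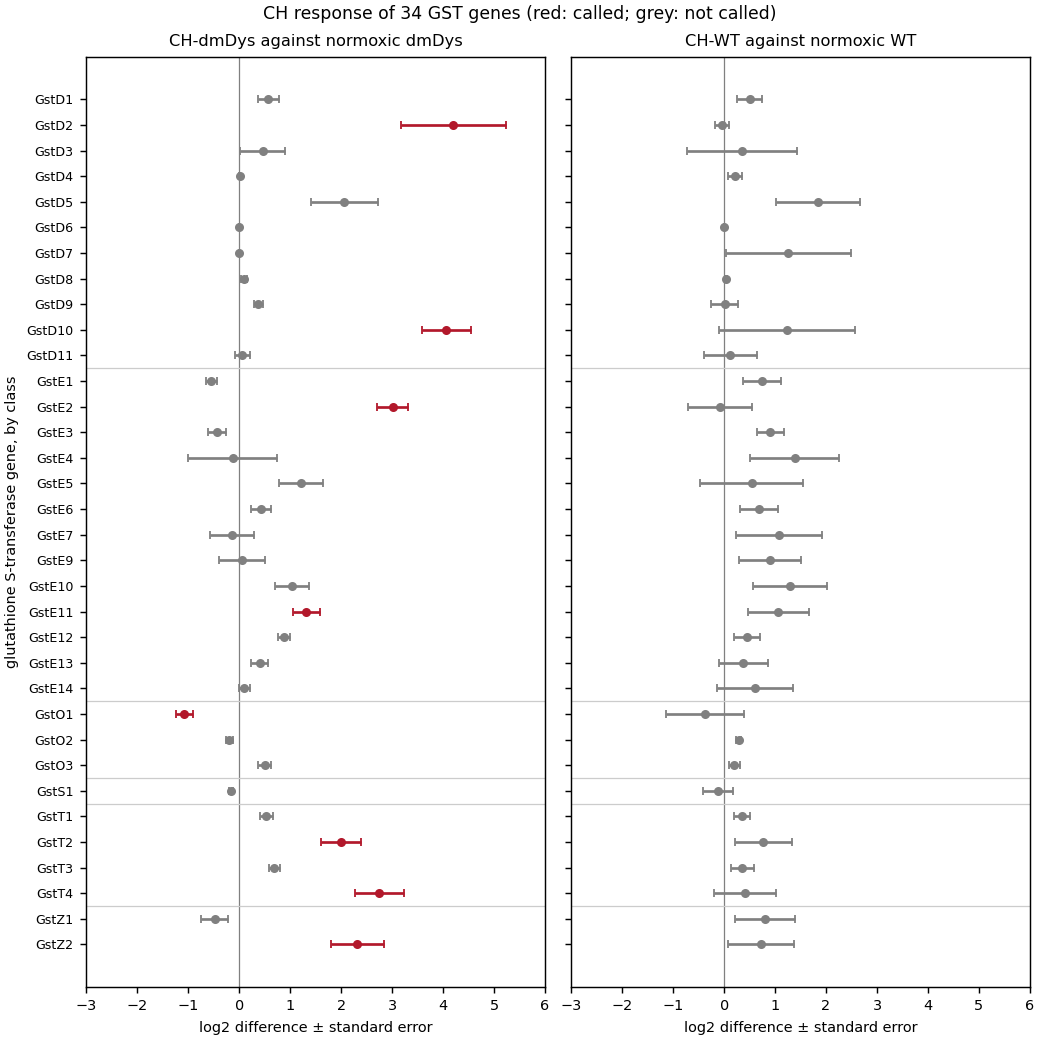
Log2 difference (horizontal axis, with its SE) between CH and normoxic flies for the 34 GSTs, by class, in dmDys flies at left and in WT flies at right, 4 flies per group. In red are the 8 genes called in dmDys flies, and 0 are called in WT flies, where 29 of 34 points lie to the right of 0, a count that is 15 of 34 in the fit with the 3' to 5' difference (not drawn).

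The WT flies without testis transcripts often had the highest level of their group, among the GSTs and among all probe sets. CH-WT replicate 7 had the highest level of its group in 26 of 30 GSTs not near the floor in all 4 flies, 86.7%, against 63.2% of all probe sets so read, and stood a median of 1.32 log2 units above the mean of the other 3 flies, against 0.77. Normoxic WT replicate 5 was highest in 21 of 28 GSTs, 75%, against 64.3%, with a median of 0.71 against 0.79. GstD3, GstO1 and GstD9 ran the other way in both flies, GstD9 with differences of -0.39 and -0.52 from the mean of the other 3. GstD3 was at 4.79 in CH-WT replicate 7 and 6.80 to 7.85 in the other CH-WT flies, and at 3.89 in normoxic WT replicate 5 and 7.18 to 7.41 in the other normoxic WT flies. GstO1 was at 6.45 against 8.26 to 9.15 and at 7.17 against 8.78 to 9.23. Whether their low levels go with the absent testis RNA was not tested. The 3' to 5' difference was 4.51 in CH-WT replicate 7, against 6.29 to 6.78 in the other CH-WT flies. In normoxic WT replicate 5 it was 7.09, against 6.97 to 7.34 in the other normoxic WT flies. Absent testis RNA and RNA length therefore cannot be told apart in CH-WT replicate 7. Without these 2 flies the WT comparison still gave 0 called GSTs, and 28 of 34 differences were above 0 (median 0.36). An unadjusted p under 0.05 was found for 7 GSTs and for 897 of the 18907 probe sets.

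Other marker lists moved in WT flies as well. All 8 fat body genes had a log2 difference above 0 (median 1.52), with a median level of 10.08 to 12.77 in CH-WT flies and 9.48 to 9.69 in normoxic WT flies, 4 of the 8 at an unadjusted p under 0.05 and 0 called. CH-WT replicate 3 had a median level of 3.71 over the 10 midgut genes, against 8.76 to 12.56 in the other WT flies, and its GSTs were the highest of the group in 0 of 30 genes and the lowest in 7 of 30 (23.3%), against 3.81% and 15.5% of all probe sets. Of the 8 eggs and yolk genes 6 were near the floor in all 16 flies, Yp1 reached 3.61 in 1 CH-dmDys fly, and grk had group means of 7.96 to 9.10. Their part in the GST levels was not tested.

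**Figure D4:**
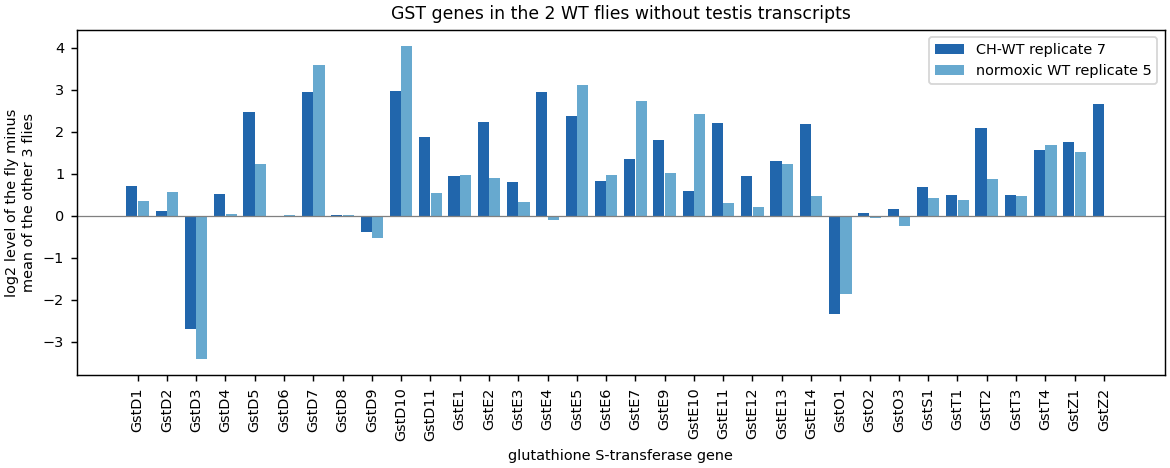
Log2 level of each GST (horizontal axis) in CH-WT replicate 7 (dark bars) and in normoxic WT replicate 5 (light bars) minus the mean of the other 3 flies of the group (vertical axis, log2 units). Most bars are above 0, and the bars of GstD3, GstO1 and GstD9 are below 0 in both flies.

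The CH response of dmDys flies minus that of WT flies was called in 0 of the 34 GSTs, against 0.894% of all probe sets. At an unadjusted p under 0.05 there were 6 GSTs, GstD2, GstE1, GstE2, GstE3, GstO2 and GstT4, and 8.13% of all probe sets. GstD2 lay near the floor in all 8 WT flies (2.23 to 2.80), and its difference between the responses was 4.24 (SE 1.05, adjusted p = 0.096). GstE2 had levels of 4.54, 3.86, 4.02 and 6.37 in CH-WT flies and of 4.85, 4.74, 5.44 and 4.07 in normoxic WT flies, which overlapped. The difference between its responses, 3.01 in dmDys and -0.08 in WT flies, was 3.09 (SE 0.71, adjusted p = 0.068). GstE3 and GstE1 went the other way, at -1.35 (SE 0.33, adjusted p = 0.088) and -1.30 (SE 0.39, adjusted p = 0.21). GstO2 passed on the adjusted p, 0.013, at a difference of -0.48, under the 2-fold limit. Leaving out 1 fly brought at most 1 call, of GstD2 without CH-dmDys replicate 5 or 7, of GstE2 without normoxic dmDys replicate 8 or CH-WT replicate 7, of GstE3 without CH-WT replicate 5 and of GstE1 without normoxic WT replicate 5.

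Without the 2 WT flies that lacked testis transcripts, 3 GSTs were called for the difference between the responses, all from the run on 2R and next to each other there, against 3.69% of all probe sets. GstE2 was higher (3.42, SE 0.45, adjusted p = 0.0024) and GstE1 and GstE3 were lower (-1.31, adjusted p = 0.013, and -1.23, adjusted p = 0.041). GstE1 had levels of 11.29, 11.62, 11.48 and 11.63 in CH-dmDys flies and of 12.07, 12.01, 12.24 and 11.90 in normoxic dmDys flies, which did not overlap. In CH-WT flies GstE1 was at 10.67, 10.93, 10.32 and 11.60 and in normoxic WT flies at 10.22, 9.83, 10.86 and 9.61, which did. GstE3 in the dmDys flies was at 12.19, 12.30, 12.73 and 12.74 under CH and at 12.95, 12.98, 13.18 and 12.63 in room air, with some overlap. GstD10 rose by 4.07 in dmDys flies and had a log2 difference of 1.24 (SE 1.33) in WT flies, where CH-WT flies were at 5.19, 7.46, 5.62 and 9.06 and normoxic WT flies at 5.30, 4.43, 8.63 and 4.02, so the difference between its responses did not pass (2.83, SE 1.44, adjusted p = 0.73). GstT4 was at 9.41, 8.57, 9.67 and 10.78 in CH-WT flies and at 8.45, 8.77, 10.45 and 9.11 in normoxic WT flies, with a difference between its responses of 2.33 (SE 0.79, adjusted p = 0.29). GstE11, GstT2, GstZ2 and GstO1, also called in dmDys flies, had differences of 0.25, 1.23, 1.60 and -0.70 that did not pass.

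Between genotypes in room air, 14 GSTs were called higher and 2 lower in normoxic dmDys than in normoxic WT flies, against 14.6% and 3.89% of all probe sets, 18.5% in all. Under CH the counts were also 14 higher and 2 lower in CH-dmDys than in CH-WT flies, against 17.3% and 4.93%, 22.2% in all. These shares are over all probe sets, many of which lay near the floor in all 8 flies. The comparisons also include the difference in scale between the arrays of the genotypes. Among probe sets not near the floor in all 8 flies the median log2 difference was itself 0.77 in room air and 0.82 under CH. It was 1.10 and 1.05 for the GSTs so read. Of these GSTs, 24 of 31 were above 0 in each comparison, against 71.9% and 71.1% of the probe sets. After quantile normalization over all 16 arrays 4 GSTs were higher and 3 lower in room air, with 611 of all probe sets higher and 915 lower (8.07%), and 5 GSTs were higher and 2 lower under CH, with 852 of all higher and 1471 lower (12.3%). The family medians were then 0.12 and 0.02. After centring of the arrays on their medians the counts were 7 and 2 in room air, against 9.85% of all probe sets, and 6 and 2 under CH, against 12.6%. With the 3' to 5' difference in the fit, 8 GSTs were higher and 6 lower under CH, against 28.4% of all probe sets, with a median of 0.01, and 9 of these 14 were among the 16 called without it. The next genes to be described were called with the deposited values and under both scalings.

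GstE14, called noppera-bo and known from larval ecdysteroid synthesis, was near the floor in all 8 dmDys flies and well above it in all 8 WT flies. Its levels were 2.58, 2.27, 2.27 and 2.56 in CH-dmDys, 2.56, 2.25, 2.25 and 2.22 in normoxic dmDys, 8.65, 7.09, 6.11 and 9.46 in CH-WT and 6.99, 7.23, 7.57 and 7.10 in normoxic WT flies. The gap between the genotypes was wider than any spread within a group. Since the dmDys values sit near the floor, the log2 differences of -4.90 (SE 0.14, adjusted p = 1.1e-07) in room air and -5.41 (SE 0.74, adjusted p = 0.00058) under CH depend on the level of that floor. Between CH-dmDys and normoxic dmDys flies its log2 difference was 0.10 (SE 0.11). GstD11, the outlying gene of the delta cluster, was lower in room air by 1.21 (adjusted p = 0.0017), at 4.48 ± 0.27 against 5.69 ± 0.31 (SD, n = 4 each), and GstZ1 was lower under CH by 2.16 (adjusted p = 0.0084), at 7.21 ± 0.46 against 9.37 ± 0.93.

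On the higher side GstD1 was called in both comparisons under each of the 3 scalings, with log2 differences of 1.94 in room air and 2.00 under CH with the deposited values and 1.01 and 1.07 after quantile normalization. Its levels were 13.62, 13.77, 13.73 and 13.90 in CH-dmDys flies, 12.97, 12.73, 13.66 and 13.38 in normoxic dmDys flies, 11.52, 11.24, 11.95 and 12.29 in CH-WT flies and 11.22, 11.26, 11.51 and 10.99 in normoxic WT flies. Every dmDys fly was above every WT fly. GstE3 (2.60, adjusted p = 1.3e-05) and GstZ2 (1.80, adjusted p = 0.00083) were called in room air under each scaling, and GstZ2 was near the floor in 7 of the 8 WT flies. GstD2 (6.13), GstE2 (4.25), GstT4 (3.98) and GstD9 (2.19) were called under CH under each scaling. The other higher calls, GstD2, GstD3, GstD9, GstE1, GstE2, GstE6, GstE7, GstE9, GstE12, GstO1 and GstO2 in room air and GstD3, GstE3, GstE5, GstE6, GstE7, GstE9, GstE12, GstO3 and GstZ2 under CH, were lost under at least 1 of these scalings. Of them GstD2 in room air held after quantile normalization only, and GstE1, GstE7, GstE9 and GstD9 in room air and GstD3 under CH held after centring only. With the deposited values, leaving out single flies also ended the calls in room air of GstD3 (any normoxic dmDys fly or normoxic WT replicate 3), GstE2 (any normoxic dmDys fly or normoxic WT replicate 2, 3 or 6) and GstO1 (any normoxic dmDys fly or normoxic WT replicate 2), with adjusted p up to 0.087, and the call under CH of GstD3 (CH-dmDys replicate 6, 7 or 8 or CH-WT replicate 3), with adjusted p up to 0.067.

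**Figure D5:**
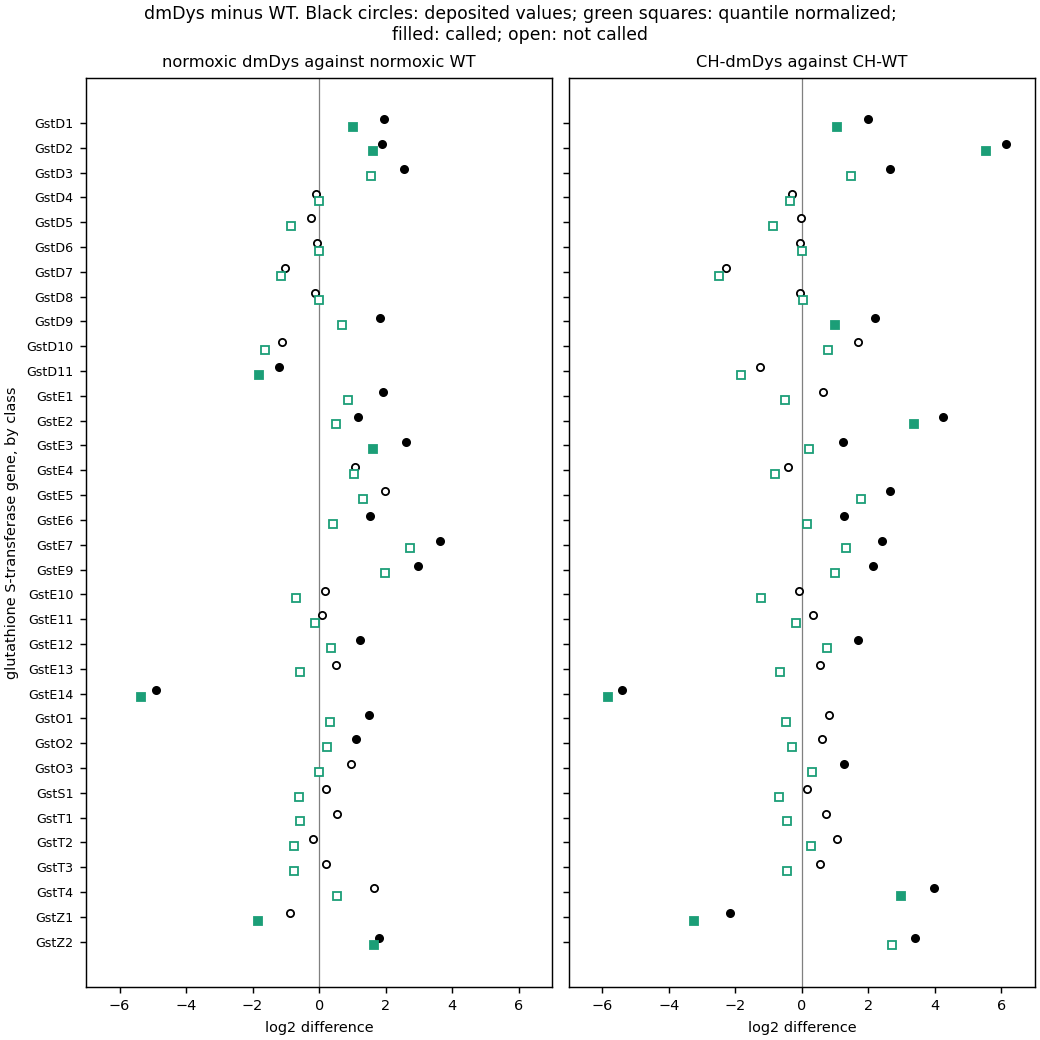
Log2 difference of dmDys minus WT flies (horizontal axis) for the 34 GSTs in room air at left and under CH at right, from the deposited values (black circles) and after quantile normalization (green squares), 4 flies per group. Filled symbols are called genes, 16 in each panel for the deposited values and 7 in each after quantile normalization, and GstE14 lies near -5 under both.

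Both GstE9 and GstO2 have a second probe set. That of GstE9 lay near the floor in all groups (means 2.08 to 2.20) while the brighter one averaged 7.96 to 11.00, so the values of GstE9 rest on 1 probe set. The second probe set of GstO2 averaged 8.54 in CH-dmDys, 8.84 in normoxic dmDys, 8.45 in CH-WT and 7.89 in normoxic WT flies, with log2 differences of -0.31 in dmDys and 0.56 in WT flies that had the same signs as those of the brighter one and did not pass. The probe set of GstS1 is of a type that can bind related transcripts.

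The genes around the GSTs in glutathione chemistry were read from a list of 27 measured genes. In CH-dmDys flies 5 were higher and 4 lower than in normoxic dmDys flies (median 0.12), against 5.46% and 4.07% of all probe sets, and in CH-WT flies 0 were called (median 0.22) while 1 had an unadjusted p under 0.05. Gclm, the modifier subunit of the enzyme that makes the first bond of glutathione, was lower in CH-dmDys flies. Its levels were 4.13 to 4.26 in CH-dmDys, 7.52 to 9.34 in normoxic dmDys, 6.48 to 9.04 in CH-WT and 5.11 to 7.21 in normoxic WT flies, so the CH-dmDys flies lay below all other flies. The log2 difference was -3.93 (SE 0.42, adjusted p = 0.0029) in dmDys flies and 1.67 (SE 0.73, adjusted p = 0.9996) in WT flies. The difference between these responses, -5.60 (SE 0.85, adjusted p = 0.0061), was called and stayed called when any 1 fly was left out. It was not called with array weights or when the 3' to 5' difference entered the fit. Gclc, the catalytic subunit of the same enzyme, had a log2 difference of 0.27 (adjusted p = 0.086) in dmDys flies, and Ggt-1, which takes glutathione apart, of 0.89 (adjusted p = 0.082).

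Of the other genes with a GST fold or a role beside the GSTs, Clic, a relative of the omega class, rose in CH-dmDys flies (2.83, SE 0.28, adjusted p = 0.0026), as did AIMP3, a scaffold of tRNA synthetases with a GST-like domain (1.05, adjusted p = 0.0094). The zinc finger gene gfzf, whose protein has a GST domain, was lower (-1.55, adjusted p = 0.0090). So was Trxr2, a thioredoxin reductase (-1.91, adjusted p = 0.0028). In WT flies Trxr2 ran from near the floor upwards, from 2.10 to 10.56 in CH-WT and from 2.10 to 10.65 in normoxic WT flies. Whether its low levels go with the absent testis RNA was not tested. Clic was at 10.92 to 11.58 in CH-dmDys flies against 8.16 to 9.01 in normoxic dmDys flies, with no overlap. Of the other enzymes and exporters the sulfotransferase St3 (2.42), the epoxide hydrolase Jheh2 (1.43) and the transporter Mdr50 (3.73) were higher and the sulfotransferase St4 (-1.84) lower, and the calls of Jheh2, Mdr50, St4 and AIMP3 held in only 1, 2, 1 and 6 of the 8 fits that left out 1 fly. With the 3' to 5' difference in the fit none of these 9 genes, Gclm included, was called in CH-dmDys flies. Jheh2 was then at -0.04 and St4 at 0.07. In 1 fit over all 4 groups Trxr2, Jheh2, Mdr50 and St4 were not called either. The microsomal enzyme Mgstl had a log2 difference of 0.77 (adjusted p = 0.063).

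The regulators of GST genes were not called in either CH comparison. In dmDys flies the log2 difference was -0.30 (adjusted p = 0.069) for cnc, -0.56 (adjusted p = 0.11) for Keap1, -0.67 (adjusted p = 0.0063, under 2-fold) for maf-S and -0.04 for Hr96, a nuclear receptor for foreign compounds. Between the genotypes in room air, cnc (1.01, adjusted p = 0.032) and maf-S (1.61, adjusted p = 1.9e-05) were called higher in normoxic dmDys flies. The call of maf-S was made in 18 of 19 settings, all but quantile normalization, and that of cnc in 7 of 18. The gene se resembled GstE14 in that it was lower in dmDys than in WT flies. Its log2 levels were 3.24 to 4.55 in CH-dmDys and 2.57 to 3.24 in normoxic dmDys flies. In CH-WT flies they were 6.41 to 9.87 and in normoxic WT flies 5.51 to 8.39. Its log2 differences were -4.39 (adjusted p = 0.00083) in room air and -4.91 (adjusted p = 0.0022) under CH. In all, 8 of the 27 genes were higher and 2 lower in normoxic dmDys than in normoxic WT flies. Over all probe sets the shares were 14.6% and 3.89%. The higher genes were cnc, maf-S, Gclm, Ggt-1, Mgstl, Trxr1, AIMP3 and Jheh2, and the lower ones se and St3. Of the higher ones only AIMP3 stayed called after quantile normalization. Between CH-dmDys and CH-WT flies 8 were higher and 3 lower, against 17.3% and 4.93%. These were Gclc, Ggt-1, Mgstl, Trxr1, eEF1gamma, Clic, AIMP3 and Jheh2 on the higher side and Gclm, se and gfzf on the lower. Both comparisons include the scale of the arrays.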

How the data were processed

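RNA from single whole flies was amplified with the NuGEN Ovation system and hybridised to Drosophila Genome 2.0 arrays. The authors processed the scans with GCRMA in GeneSpring, and the deposited values are linear intensity, with a column for each fly. Their log2 was used as it stood. The array has 18952 probe sets, 13647 with 1 gene symbol, and all but the 45 for hybridization control (18907) were tested. Comparisons were fitted with limma 3.58.1 (lmFit and eBayes) in R 4.3.3 on their own 8 arrays, the difference between the CH responses on all 16, with Benjamini-Hochberg adjustment over 18907 probe sets. The script was tested on simulated arrays. SAM, which the methods name, was not rebuilt. Named with values in every fly are members called under CH and the largest difference of each class, with GstE1, GstE14 and GstD1 added after their values were seen. Members and gene lists were chosen with earlier results of these data known. No gene sequences were used here. P-values measure the spread between these flies, and 4 arrays per group limit the precision.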

Additional observations from a re-analysis of the deposited data

Results flagged for a closer look

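In 8 of the 116 combinations of a GST and a group that were looked at, 1 fly stood far from the other 3 by Dixon's criterion, and chance gives about 1 in 20. In normoxic WT replicate 5, which lacked testis transcripts, GstD3 was at a log2 level of 3.89 (other flies 7.18 to 7.41), GstD7 at 5.78 (2.19 to 2.21) and GstD9 at 8.98 (9.48 to 9.53). In CH-WT replicate 7, which also lacked them, GstT2 was at 7.10 (4.89 to 5.14) and GstZ2 at 4.93 (2.21 to 2.36). In normoxic dmDys flies, GstD10 was at 4.01 in replicate 10 (4.59 to 4.63), GstD11 at 4.08 in replicate 8 (4.57 to 4.66) and GstE10 at 6.93 in replicate 6 (8.00 to 8.17). The cause was not tested for any of these flies.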

How the results depend on the processing

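For CH-dmDys against normoxic dmDys flies the count of called GSTs, 8, was 14 with no fold threshold, 0 with the 3' to 5' covariate and 5 to 7 when 1 fly was left out. Over all 18907 probe sets the count, 1801, was then 3819, 29 and 1255 to 2109. In 1 fit over all 4 groups 6 GSTs and 912 probe sets were called, and GstE11 and GstO1 were not. GstE11 was also lost with the floor at log2 of 4, where 7 GSTs and 1527 probe sets were called. For CH-WT against normoxic WT flies the count of GSTs was 0 in each setting tried, and at most 10 probe sets were called in any of them. For normoxic dmDys against normoxic WT flies the count of 16 GSTs was 7 after quantile normalization, 9 after centring and 13 to 18 with 1 fly left out. Over all probe sets 3504 became 1526, 1862 and 2916 to 5049. For CH-dmDys against CH-WT flies 16 GSTs became 7, 8, 10 with array weights and 15 to 18, and with the 3' to 5' covariate 14, of which 6 lower. Over all probe sets 4202 became 2323, 2373, 2979 and 3602 to 5456, and 5371 with the covariate. For the difference between the CH responses 0 GSTs became 1 with probe sets brighter than the median only (GstE2), with array weights (GstD7) or with no fold threshold (GstO2). The count was 3 without both WT flies that lack testis transcripts and 0 to 1 with 1 fly left out. Over the probe sets tested in each of these settings, 169 became 162, 54 and 195, then 698 and 115 to 321.

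The label numbers gave no clear pairing of the flies. With 3 shared numbers per comparison, and 2 WT flies without testis transcripts, pairing can be neither shown nor excluded. Deviations of same-numbered flies correlated from -0.194 to 0.107 for the dmDys groups, from -0.88 to 0.669 for the WT groups and from -0.116 to 0.126 for the CH groups, and 2 of 6, 2 of 6 and 1 of 6 flies correlated best with their own number. With the replicate block, on 6 arrays, 0 GSTs and none of the 9 pathway genes called without it were called in dmDys flies, and 0 GSTs were called in WT flies and 8 between the CH groups. Over all probe sets 0.0635%, 0% and 8.9% were called in these 3 comparisons. No paired analysis was possible for the normoxic genotypes, which share 1 number, or for the difference between the responses.

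For single genes, 3 values reversed. The dimmer probe set of GstE9 gave -0.043 in room air and -0.12 under CH for dmDys minus WT, near the floor, and GstE5 gave -0.12 under CH with the 3' to 5' covariate. Of 455 gene values under settings other than leaving out 1 fly, 363 kept their direction and side of the threshold and 89 kept only the direction, as did 284 and 36 of 320 with 1 fly left out. The causes were not tested. Levels near the floor have no order, which limits GstD4, GstD6 and GstD8 in all flies.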
